A study of Homo sapiens with 8 samples.

Results

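Death receptor pathway genes were examined in 6T-CEM and J.gamma1 cells with and without knockdown of LDB1, a cofactor that bridges DNA-bound transcription factors. The group held 10 of the 64252 genes of each count table. It comprised the TRAIL receptor genes TNFRSF10A and TNFRSF10B, FAS, the TNF receptor gene TNFRSF1A, the adaptor genes TRADD and FADD, the caspase genes CASP8 and CASP10, and the inhibitor genes CFLAR and XIAP. The genes were chosen by pathway with their levels and their knockdown changes in these libraries already known. Their levels and changes are therefore given below as a description, with no test. All 10 passed the filter on low counts in both lines.

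Both lines are human T-cell acute lymphoblastic leukemia (T-ALL) lines, 6T-CEM being derived from CCRF-CEM and J.gamma1 from Jurkat. Each line carried a lentiviral pLKO.1 hairpin, with sh-NC as the control hairpin and sh-LDB1 as the hairpin that targets LDB1, and was kept under puromycin to select infected cells. All 4 groups therefore share infection and selection, and the 2 libraries of each group were sequenced from RNA of cell populations. The study designed several LDB1 hairpins, and the sources used here do not say which of them these libraries carry. Nothing in the labels says that the 2 libraries of a group came from separate cultures, so the p-values below measure the spread between these libraries, which may be technical.

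Library totals lay between 26160492 and 30604977 counts. LDB1 was lower in each sh-LDB1 library than in each control library of its line. In 6T-CEM its counts were 2777 and 2996 in the controls and 1078 and 1000 in the knockdown, 33.1% of the control level (log2 fold change -1.60, SE 0.071, adjusted p = 1.02e-09, edgeR quasi-likelihood test). In J.gamma1 its counts were 1909 and 1854 in the controls and 929 and 906 in the knockdown, 54.0% of the control level (log2 fold change -0.89, SE 0.075, adjusted p = 3.68e-06, edgeR). The 6 T-lineage markers CD3D, CD3E, CD7, CD2, CD5 and LCK summed to between 1260 and 1910 CPM (counts per 1000000 counts of a library) across the libraries. That sum was 1260 to 1310 in the controls and 1620 to 1670 in the knockdown of 6T-CEM, and 1640 to 1700 in the controls and 1870 to 1910 in the knockdown of J.gamma1. The markers did not move together. CD3E had the largest increase in both lines, at 410 and 409 CPM in the controls and 631 and 637 CPM in the knockdown of 6T-CEM and at 462 and 463 CPM against 877 and 896 CPM in J.gamma1. CD7 was also higher without overlap in both lines and CD3D and LCK in 6T-CEM, whereas LCK, CD3D and CD2 were lower in J.gamma1. CD5 was lower in both lines, in J.gamma1 only narrowly (37.0 and 37.5 CPM in the controls, 34.8 and 36.9 CPM in the knockdown). In 6T-CEM, CD2 was nearly absent, at 9 to 14 counts. The part of these markers in the results below was not tested. B-cell, myeloid and epithelial or kidney markers summed to at most 11.5, 1.63 and 2.39 CPM, and the erythroid markers HBB and ALAS2 were at 0 in every library. In bulk RNA, fewer cells that express a gene and less of its RNA per cell cannot be told apart.

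Death receptors are surface proteins of the TNF receptor superfamily with a death domain inside the cell. TRAIL receptors and FAS bind the adaptor FADD when their ligands cluster them, and FADD recruits CASP8 and CASP10, which activate each other and then cleave the effector caspases. CFLAR (c-FLIP) resembles CASP8 without its protease activity and competes for FADD, XIAP binds and blocks downstream caspases, and TNFRSF1A acts through TRADD, which can lead to NF-kB signaling or to death. In T cells, FAS takes part in removing activated cells at the end of an immune response.

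The promoters of CASP8 and FAS are shown because CASP8 had the highest log2 fold change of the caspase and inhibitor genes in both lines, whereas FAS lay on opposite sides of its controls in the lines. Each sequence is the RefSeq window of GRCh38.p14 at the start of the canonical transcript, from 250 bases before the start to 50 bases after it, 5′ to 3′ on the plus strand. CASP8 lies at chr2:201260286-201260585 and FAS at chr10:88990548-88990847, and capitals mark the motif letters described next.
CASP8: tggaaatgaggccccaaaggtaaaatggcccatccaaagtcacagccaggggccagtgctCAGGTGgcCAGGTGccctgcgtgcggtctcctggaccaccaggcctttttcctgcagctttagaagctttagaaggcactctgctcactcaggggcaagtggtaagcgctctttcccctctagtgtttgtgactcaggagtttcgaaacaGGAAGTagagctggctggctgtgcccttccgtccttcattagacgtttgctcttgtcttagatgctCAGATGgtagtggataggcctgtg
FAS: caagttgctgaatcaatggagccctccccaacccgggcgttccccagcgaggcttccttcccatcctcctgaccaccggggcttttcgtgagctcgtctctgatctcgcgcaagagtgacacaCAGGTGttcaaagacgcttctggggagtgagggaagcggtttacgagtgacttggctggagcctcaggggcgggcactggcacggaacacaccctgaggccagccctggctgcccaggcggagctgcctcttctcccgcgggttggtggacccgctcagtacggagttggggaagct
Of the 10 genes, 5 (FAS, TNFRSF1A, FADD, CASP8 and XIAP) had a window at that start. They were searched on both strands for the letters of 4 motifs. The ETS core GGAAGT occurred in the CASP8 window, beginning 40 bases before the start, and in none of the other 4. It was found in 22.8% of 35116 windows of all genes. E-box letters (CAGNTG) occurred 3 times in CASP8, 2 times in FADD, once each in FAS and TNFRSF1A and not in XIAP, against 49.9% of all windows with a match. GATA letters (AGATAA, 10.3% of windows) occurred only in FADD among the 5, and RUNX letters (TGTGGT, 13.1%) were found in none of them. A match describes the letters and not a site of binding.

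The control libraries of the lines differed most in the TRAIL receptor genes. TNFRSF10B, whose protein DR5 carries the TRAIL death signal, was at 0.962 and 0.519 CPM in 6T-CEM and at 60.0 and 66.4 CPM in J.gamma1, a ratio of 85.3. TNFRSF10A, whose protein DR4 is the other death-inducing TRAIL receptor, went the other way, at 6.39 and 6.53 CPM in 6T-CEM and at 0.630 and 1.33 CPM in J.gamma1, a ratio of 6.59 in favor of 6T-CEM. 6T-CEM thus held more TNFRSF10A RNA than J.gamma1 and far less TNFRSF10B RNA. Among the other genes, TRADD was 1.88 times as high in J.gamma1, while CFLAR, CASP10, FAS, TNFRSF1A and CASP8 were 1.88, 1.69, 1.49, 1.19 and 1.18 times as high in 6T-CEM. FADD and XIAP overlapped between the lines. The plot of control levels places 8 of the genes near the line of equality and the TRAIL receptor genes far from it on opposite sides.

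**Figure D1:**
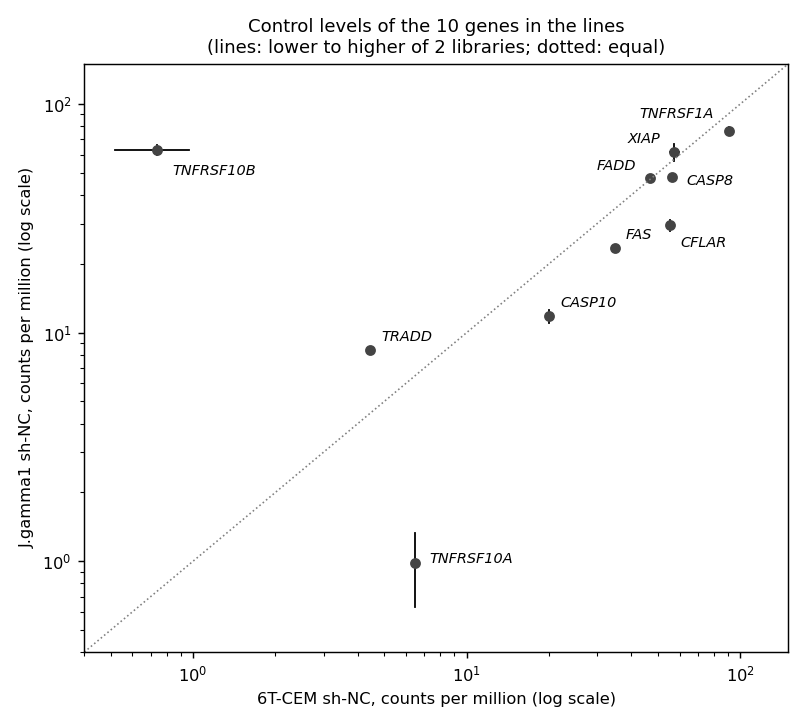
Mean control level of each of the 10 genes in 6T-CEM (x axis) and J.gamma1 (y axis), in CPM on log scales, with lines from the lower to the higher of the 2 libraries and a dotted line of equal levels. TNFRSF10B stands at 0.741 CPM against 63.2 CPM, and TNFRSF10A at 6.46 CPM against 0.980 CPM.

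After knockdown, TNFRSF10A moved in opposite directions in the lines. In 6T-CEM it was at 6.39 and 6.53 CPM in the controls and at 3.12 and 3.15 CPM in the knockdown, a log2 fold change of -1.04 (SE 0.21). In J.gamma1 it was at 0.630 and 1.33 CPM in the controls and at 4.61 and 5.09 CPM in the knockdown, a log2 fold change of 2.31 (SE 0.33). That value rests on 20 and 42 control counts, and it was 2.94 without the sh-NC replicate 2 and 1.87 without the sh-NC replicate 1. The groups did not overlap in either line. The knockdown levels of the lines lay closer together than the control levels, as the panels by library show. TNFRSF10A lies on chromosome 8 of GRCh38 (23190452 to 23225102, minus strand) and shares 266 exon bases with the divergent transcript TNFRSF10A-DT, whose mean counts were 31 in the controls and 19.5 in the knockdown of 6T-CEM and 6.5 and 39 in J.gamma1. TNFRSF10A-DT did not pass in 6T-CEM (log2 fold change -0.79, SE 0.44, adjusted p = 0.196, edgeR) and rose in J.gamma1 (2.71, SE 0.93, adjusted p = 0.0471). Whether the counting used the strand is not given in the sources used here, so reads from the shared bases cannot be assigned with certainty.

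TNFRSF10B was higher after knockdown in both lines. In J.gamma1, where it was abundant, it was at 60.0 and 66.4 CPM in the controls and at 102 and 103 CPM in the knockdown, 1.62 times the control (log2 fold change 0.70, SE 0.062). In 6T-CEM the counts were 25 and 14 in the controls and 62 and 60 in the knockdown (log2 fold change 1.51, SE 0.38). With these few counts the 6T-CEM value ranged from 1.14 without the sh-NC replicate 2 to 2.02 without the sh-NC replicate 1 over 11 alternative settings. TNFRSF10B (chromosome 8, 23020133 to 23069031, minus strand) shares 377 exon bases with RHOBTB2 on the opposite strand. In 6T-CEM, RHOBTB2 had means of 156.5 counts in the controls and 283 in the knockdown, more than TNFRSF10B, and it rose by 0.73 on the log2 scale (SE 0.19, adjusted p = 0.00828, edgeR). The part of these reads in the 6T-CEM value was not tested. In J.gamma1, RHOBTB2 had 1081 and 883.5 counts against 2000 and 2936.5 for TNFRSF10B and did not pass the test (log2 fold change -0.14, adjusted p = 0.156, edgeR).

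FAS, the receptor of FAS ligand, also went in opposite directions, by smaller amounts. In 6T-CEM it was at 33.9 and 35.6 CPM in the controls and at 25.9 and 27.2 CPM in the knockdown (log2 fold change -0.38, SE 0.091). J.gamma1 held 23.0 and 23.7 CPM in the controls and 27.1 and 28.5 CPM in the knockdown (log2 fold change 0.26, SE 0.084). The groups did not overlap within a line, and the knockdown libraries of the lines overlapped each other. FAS (chromosome 10, 88953813 to 89029605, plus strand) shares 166 exon bases with STAMBPL1 on the same strand, whose mean counts were 971.5 and 917 in 6T-CEM and 1351.5 and 877.5 in J.gamma1, and 387 with ACTA2. In J.gamma1, FAS was higher while STAMBPL1 fell (log2 fold change -0.47, SE 0.092, adjusted p = 0.00136, edgeR). In 6T-CEM the mean counts of both genes were lower in the knockdown, those of FAS going from 921 to 767.5. FAS also shares 1899 exon bases with ENSG00000286116 on the opposite strand, for which no counts were available. The part of shared reads in the FAS values was not tested.

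TNFRSF1A, which encodes TNF receptor 1, was higher after knockdown in both lines by nearly equal log2 fold changes. It was at 90.2 and 91.0 CPM in the controls and at 106 and 114 CPM in the knockdown of 6T-CEM (log2 fold change 0.28, SE 0.065). J.gamma1 held 72.9 and 79.3 CPM in the controls and 96.4 and 90.8 CPM in the knockdown (log2 fold change 0.30, SE 0.062). No control library reached a knockdown library of its line.

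**Figure D2:**
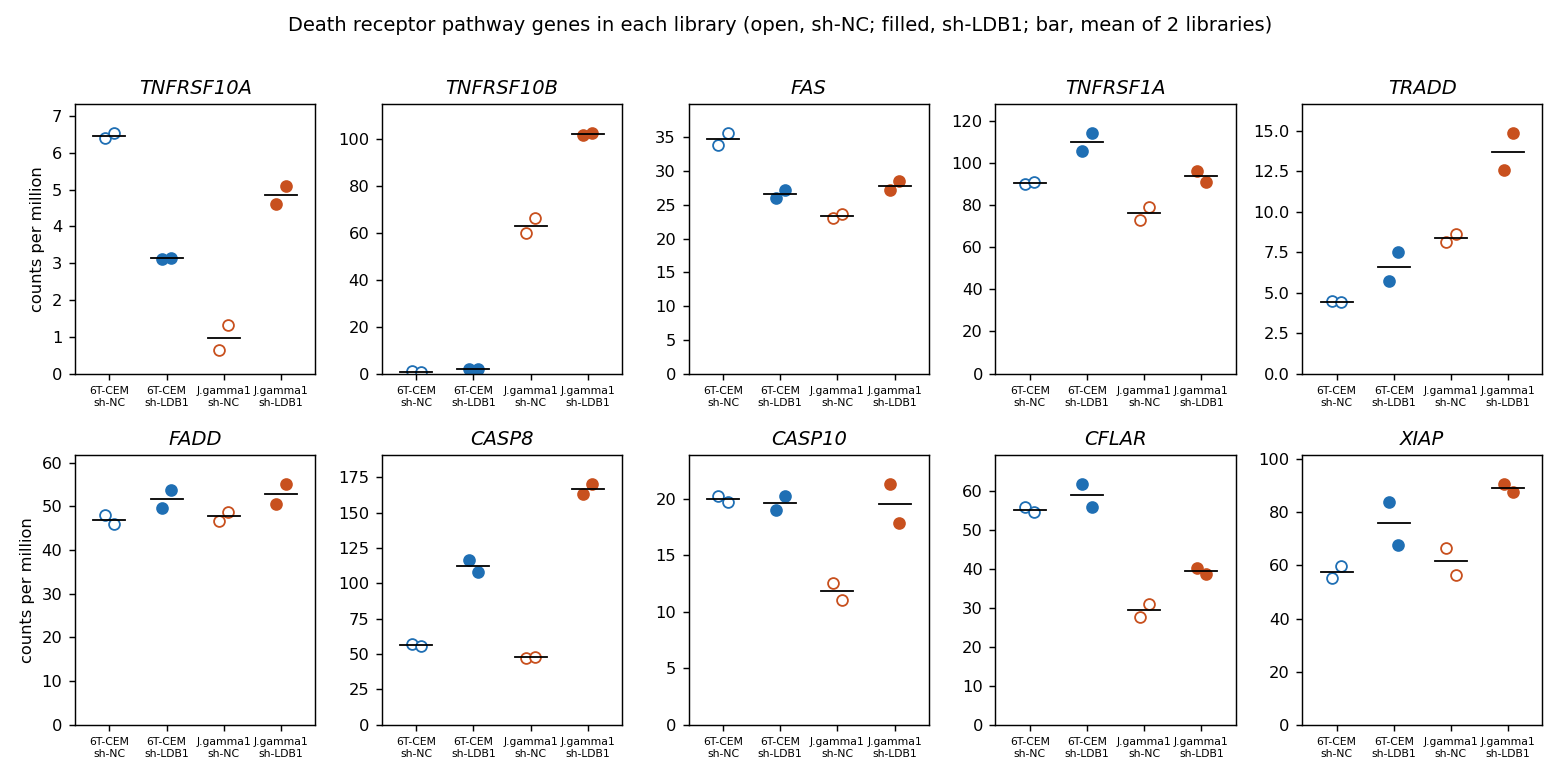
Level of each of the 10 genes in every library, in CPM on axes that start at 0, with open points for sh-NC, filled points for sh-LDB1, blue for 6T-CEM, orange for J.gamma1 and a bar at the mean of the 2 libraries. CASP8 stands at 55.8 to 56.9 CPM in the 6T-CEM controls and 47.4 to 48.1 CPM in the J.gamma1 controls, below the 108 to 170 CPM of the knockdown libraries.

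Of the adaptors, TRADD showed the larger differences and FADD the smaller ones. TRADD, which links TNFRSF1A to its signaling complex, was at 4.46 and 4.41 CPM in the controls and at 5.73 and 7.48 CPM in the knockdown of 6T-CEM (log2 fold change 0.58, SE 0.21). The J.gamma1 values were 8.09 and 8.62 CPM in the controls and 12.6 and 14.8 CPM in the knockdown (log2 fold change 0.72, SE 0.14). FADD, the adaptor shared by FAS and the TRAIL receptors, was at 47.9 and 45.9 CPM in the controls and at 49.5 and 53.8 CPM in the knockdown of 6T-CEM (log2 fold change 0.14, SE 0.079). The J.gamma1 values were 46.7 and 48.7 CPM in the controls and 50.5 and 55.0 CPM in the knockdown (log2 fold change 0.15, SE 0.073). The groups did not overlap for either adaptor. For FADD in both lines and TRADD in 6T-CEM, the gap between groups was smaller than the spread of the knockdown libraries.

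CASP8, the initiator caspase of the pathway, was far higher after knockdown in both lines. In 6T-CEM it was at 56.9 and 55.8 CPM in the controls and at 116 and 108 CPM in the knockdown, 1.99 times the control (log2 fold change 1.00, SE 0.068). In J.gamma1 it was at 47.4 and 48.1 CPM in the controls and at 163 and 170 CPM in the knockdown, 3.50 times the control (log2 fold change 1.81, SE 0.054). With counts of 1479 or more in each library, its standard errors were among the lowest of the 10 genes.

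CASP10, the caspase gene next to CASP8, did not follow it in 6T-CEM. There it was at 20.3 and 19.7 CPM in the controls and at 19.0 and 20.3 CPM in the knockdown, and the groups overlapped (log2 fold change -0.02, SE 0.11, positive under 2 of 12 alternatives). CASP10 in J.gamma1 stood at 12.6 and 11.1 CPM in the controls and at 21.3 and 17.8 CPM in the knockdown, without overlap (log2 fold change 0.73, SE 0.13). The J.gamma1 knockdown mean of 19.6 CPM was close to both 6T-CEM means, 20.0 and 19.7 CPM.

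The inhibitor genes were also higher after knockdown. CFLAR was at 55.8 and 54.5 CPM in the controls and at 61.8 and 56.0 CPM in the knockdown of 6T-CEM, where the gap between groups was smaller than the spread of the knockdown libraries (log2 fold change 0.10, SE 0.076). CFLAR in J.gamma1 stood at 27.8 and 31.1 CPM in the controls and at 40.3 and 38.6 CPM in the knockdown (log2 fold change 0.43, SE 0.083). XIAP, which binds effector caspases and CASP9, was at 55.1 and 59.7 CPM in the controls and at 84.1 and 67.7 CPM in the knockdown of 6T-CEM (log2 fold change 0.41, SE 0.099). There too the gap between groups was smaller than the spread of the knockdown libraries. XIAP in J.gamma1 stood at 66.7 and 56.3 CPM in the controls and at 90.6 and 87.6 CPM in the knockdown (log2 fold change 0.54, SE 0.081). The genes that promote death signaling and those that restrain it were thus higher together in J.gamma1.

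Counted over the 10 genes, 7 were higher without overlap in 6T-CEM, 2 were lower without overlap (TNFRSF10A and FAS) and 1 overlapped. Over the 16059 genes tested in that line, 32.1% were higher and 33.2% lower without overlap. In J.gamma1 all 10 were higher without overlap, against 37.2% higher and 38.6% lower over 17215 genes. Nothing is drawn from these counts, since the same contrasts were known when the genes were chosen. The 10 genes had a median log2 fold change of 0.21 (6T-CEM) and 0.62 (J.gamma1), and the medians of all genes tested were 0.0027 and -0.0002.

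**Figure D3:**
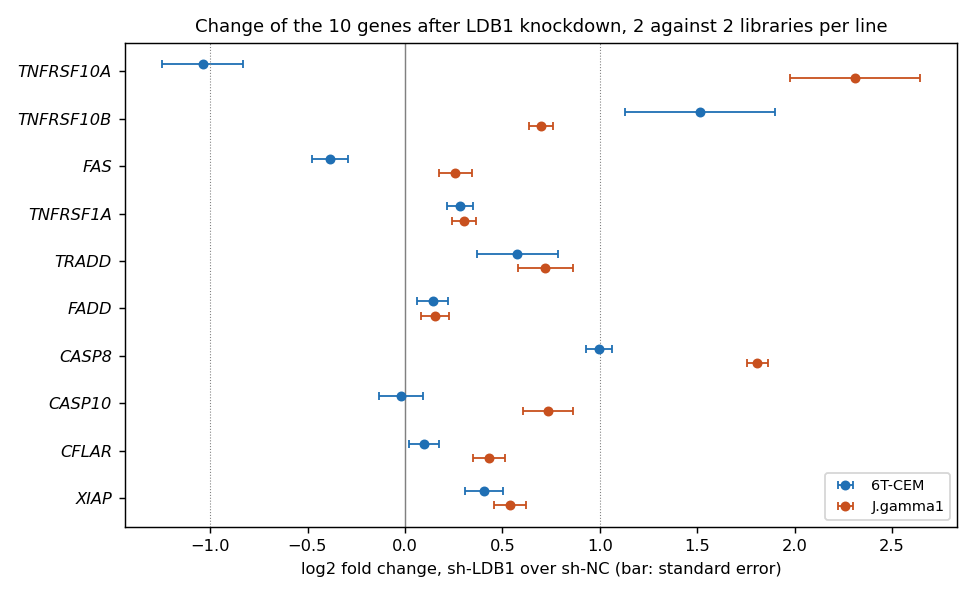
Log2 fold change of each of the 10 genes, sh-LDB1 over sh-NC, with its standard error, in 6T-CEM (blue) and J.gamma1 (orange), with dotted lines at a log2 fold change of 1 in either direction. In J.gamma1 all 10 lie above 0, from 0.15 to 2.31, and in 6T-CEM they lie between -1.04 and 1.51.

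The change in J.gamma1 minus the change in 6T-CEM, from a fit of all 8 libraries, was 3.34 on the log2 scale for TNFRSF10A (SE 0.41) and between 0.64 and 0.81 for FAS, CASP10 and CASP8. It was 0.33 for CFLAR and at most 0.14 for TRADD, XIAP, TNFRSF1A and FADD, whose values in the lines lay close together. For TNFRSF10B it was -0.82 (SE 0.25), the value that rests on the few 6T-CEM counts. LDB1 itself fell less in J.gamma1, by a difference of 0.70 (SE 0.095, adjusted p = 0.000237, edgeR interaction).

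Per kilobase of annotated exon, FADD and TNFRSF1A had the highest control levels of the 10 genes, at 27.5 ± 0.818 and 21.5 ± 0.130 CPM per kilobase in 6T-CEM and 27.9 ± 0.831 and 18.1 ± 1.07 in J.gamma1 (SD, n = 2). CASP8 ranked 3 of 10 in the 6T-CEM controls (7.79 ± 0.109) and 4 of 10 in the J.gamma1 controls (6.60 ± 0.0635), close to XIAP (6.03 ± 0.338 and 6.46 ± 0.771), from which it could not be separated beyond the spread in J.gamma1. TRADD, TNFRSF10A, CASP10 and CFLAR lay between 2.04 and 2.46 in the 6T-CEM controls. TNFRSF10B ranked last in 6T-CEM (0.148 ± 0.0625) and 3 in J.gamma1 (12.6 ± 0.895), and TNFRSF10A ranked last in the J.gamma1 controls (0.335 ± 0.169). After knockdown, CASP8 reached 15.5 ± 0.837 in 6T-CEM and 23.0 ± 0.685 in J.gamma1, where it ranked 2, within the spread of TNFRSF1A (22.3 ± 0.933) and above TNFRSF10B (20.4 ± 0.113). The ranks depend on the length used. The annotated exons of FAS together cover 29313 bases and its canonical transcript 3696, and by the canonical transcripts FAS ranked 4 in place of 9 in the 6T-CEM controls and CASP8 ranked 1 in the J.gamma1 knockdown.

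CFLAR (201116154 to 201176687), CASP10 (201182872 to 201229428) and CASP8 (201233443 to 201361836) lie next to each other on the plus strand of chromosome 2. The genes within 500 kb of this cluster, chosen after the changes were known, did not share one direction. In 6T-CEM 3 of 14 tested rose and 3 fell, when 15.1% of all genes rose and 16.2% fell. The neighbors had log2 fold changes from -0.63 to 0.47, all below that of CASP8. In J.gamma1 4 of 13 rose and 4 fell, when 25% of all genes rose and 26.5% fell, with TRAK2 rising by 0.81. FLACC1, which lies on the opposite strand within the annotated span of CASP8 and shares no exon bases with it, was at means of 7 and 20 counts there (log2 fold change 1.65, SE 0.67, adjusted p = 0.0605, edgeR).

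The wider pathway was described with 35 further genes, namely ligands, other receptors, regulators of the receptor complexes and downstream death genes. In 6T-CEM 33 were tested, of which 9 rose, 8 fell and 16 did not pass an adjusted p under 0.05, when 15.1% of all genes rose and 16.2% fell. In J.gamma1 31 were tested, of which 6 rose, 10 fell and 15 did not pass, when 25% of all genes rose and 26.5% fell. Their median log2 fold change stood at 0.11 for 6T-CEM and at -0.0034 for J.gamma1. With a log2 fold change beyond 1 as well, RIPK3 rose and TNFSF10 and TNFAIP3 fell in 6T-CEM, where 2.74% of all genes rose and 2.39% fell by that rule. In J.gamma1 TNFRSF10D and MLKL rose and TNFAIP3 and CASP9 fell, against 6.67% and 7.19% of all genes. The groups did not overlap for 15 genes upward and 10 downward in 6T-CEM and for 10 upward and 13 downward in J.gamma1. Over all genes tested, 32.1% were higher and 33.2% lower without overlap in 6T-CEM, and 37.2% and 38.6% in J.gamma1. The wider list therefore went both ways in each line. As the list was written with earlier results of these data known, these counts are a description.

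Among the ligands, TNFSF10, the gene of TRAIL itself, fell in both lines. Its counts were 315 and 369 in the controls and 152 and 200 in the knockdown of 6T-CEM (log2 fold change -1.08, SE 0.18, adjusted p = 0.000337, edgeR). In J.gamma1 they were 459 and 506 in the controls and 248 and 213 in the knockdown (log2 fold change -0.92, SE 0.15, adjusted p = 0.000364, edgeR). TNF rose in 6T-CEM, from 102 and 123 counts to 212 and 209 (log2 fold change 0.78, SE 0.19, adjusted p = 0.00668, edgeR, and 0.0672 without the sh-NC replicate 1), and had 2 to 6 counts in J.gamma1, below the filter. FASLG, the FAS ligand gene, had 21 and 23 counts in the controls and 21 and 39 in the knockdown of 6T-CEM and at most 9 in J.gamma1. LTA, the lymphotoxin alpha gene, had 16 to 61 counts in the libraries and did not pass in either line.

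The decoy receptors, which bind TRAIL or FAS ligand without passing on a death signal, had few reads. TNFRSF11B was at 0 in all 8 libraries and TNFRSF6B had 0 to 6 counts, so neither was tested. TNFRSF10C, next to the TRAIL receptor genes on chromosome 8, had 15 and 6 counts in the controls and 32 and 13 in the knockdown of 6T-CEM. In J.gamma1 it had 31 and 26 counts in the controls and 40 and 49 in the knockdown, and it did not pass in either line. TNFRSF10D went from 27 and 38 counts to 78 and 62 in 6T-CEM (log2 fold change 0.98, SE 0.32, adjusted p = 0.0318, edgeR), a call lost under 7 of the alternatives. In J.gamma1 it went from 5 and 3 counts to 13 and 30 (log2 fold change 2.52, SE 0.69, adjusted p = 0.0107, edgeR, 0.0535 without the sh-NC replicate 2 and 0.21 without the sh-LDB1 replicate 2). Of the other receptors, TNFRSF21, a death receptor of its own, fell in both lines (log2 fold changes -0.78 and -0.64), and TNFRSF25 rose in 6T-CEM (0.87, adjusted p = 0.0222, edgeR), a call lost under 5 of the alternatives.

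Of 13 regulators of the receptor complexes, 3 rose and 2 fell in 6T-CEM and 2 rose and 4 fell in J.gamma1. Of all genes tested, 15.1% rose and 16.2% fell in 6T-CEM, and 25% and 26.5% in J.gamma1. TNFAIP3 (A20), a ubiquitin-editing enzyme that dampens NF-kB signaling from the TNF receptor, fell in both lines by nearly equal amounts. Its counts were 3358 and 3661 in the controls and 1812 and 1828 in the knockdown of 6T-CEM (log2 fold change -1.07, SE 0.065, adjusted p = 2.23e-08, edgeR). In J.gamma1 they were 2715 and 2769 in the controls and 1181 and 1288 in the knockdown (log2 fold change -1.01, SE 0.063, adjusted p = 4.19e-07, edgeR). BIRC3, which encodes the ubiquitin ligase cIAP2, fell in 6T-CEM (log2 fold change -0.72, SE 0.12, adjusted p = 0.000418, edgeR) and did not pass in J.gamma1 (log2 fold change -0.21, adjusted p = 0.0584). RIPK1, the kinase at the branch between survival and death signaling, did not pass in either line (log2 fold changes 0.11 and 0.08, adjusted p = 0.346 and 0.44, edgeR).

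Among the 11 downstream genes, 3 rose and 4 fell in each line. The J.gamma1 falls include HTRA2 (log2 fold change -0.20, adjusted p = 0.0496, edgeR), whose call was lost under 10 of 12 alternatives. The shares over all genes were 15.1% and 16.2% in 6T-CEM and 25% and 26.5% in J.gamma1. The effector caspase gene CASP6 fell in both (log2 fold changes -0.35 and -0.66), a call that was lost in 6T-CEM without the sh-NC replicate 2 (adjusted p = 0.0586, edgeR). CASP9, the initiator of the mitochondrial route, fell in J.gamma1 from 685 and 611 counts to 278 and 273 (log2 fold change -1.09, SE 0.12, adjusted p = 2.63e-05, edgeR). In 6T-CEM it had 208 and 177 counts in the controls and 115 and 170 in the knockdown, lower without overlap. It did not pass there (log2 fold change -0.55, SE 0.22, adjusted p = 0.0757, edgeR), nor did the difference between the lines (-0.53, adjusted p = 0.182, edgeR interaction). BID, the substrate through which CASP8 reaches mitochondria, fell in 6T-CEM (log2 fold change -0.41, SE 0.079, adjusted p = 0.00119, edgeR) and stood at 0.0063 in J.gamma1. CASP8 was therefore higher while CASP6 was lower, in both lines.

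The genes of necroptosis, a form of death that CASP8 restrains, were also read. MLKL, whose protein ruptures the membrane, rose in J.gamma1 from 249 and 260 counts to 554 and 623 (log2 fold change 1.35, SE 0.12, adjusted p = 4.99e-06, edgeR). In 6T-CEM it had 300 and 378 counts in the controls and 455 and 434 in the knockdown and did not pass (log2 fold change 0.27, adjusted p = 0.165). RIPK3, the kinase that activates MLKL, had 29 and 51 counts in the controls and 106 and 77 in the knockdown of 6T-CEM (log2 fold change 1.07, SE 0.32, adjusted p = 0.0186, edgeR). In J.gamma1 it had 55 and 40 in the controls and 79 and 89 in the knockdown (log2 fold change 0.96, SE 0.29, adjusted p = 0.0154, edgeR). With DESeq2 neither RIPK3 call held (adjusted p = 0.0771 and 0.0608), and in 6T-CEM it was lost without the sh-NC replicate 1 (0.161, edgeR) or the sh-LDB1 replicate 1 (0.167), and in J.gamma1 without replicate 2 of sh-NC (0.0896) or of sh-LDB1 (0.0694).

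**Figure D4:**
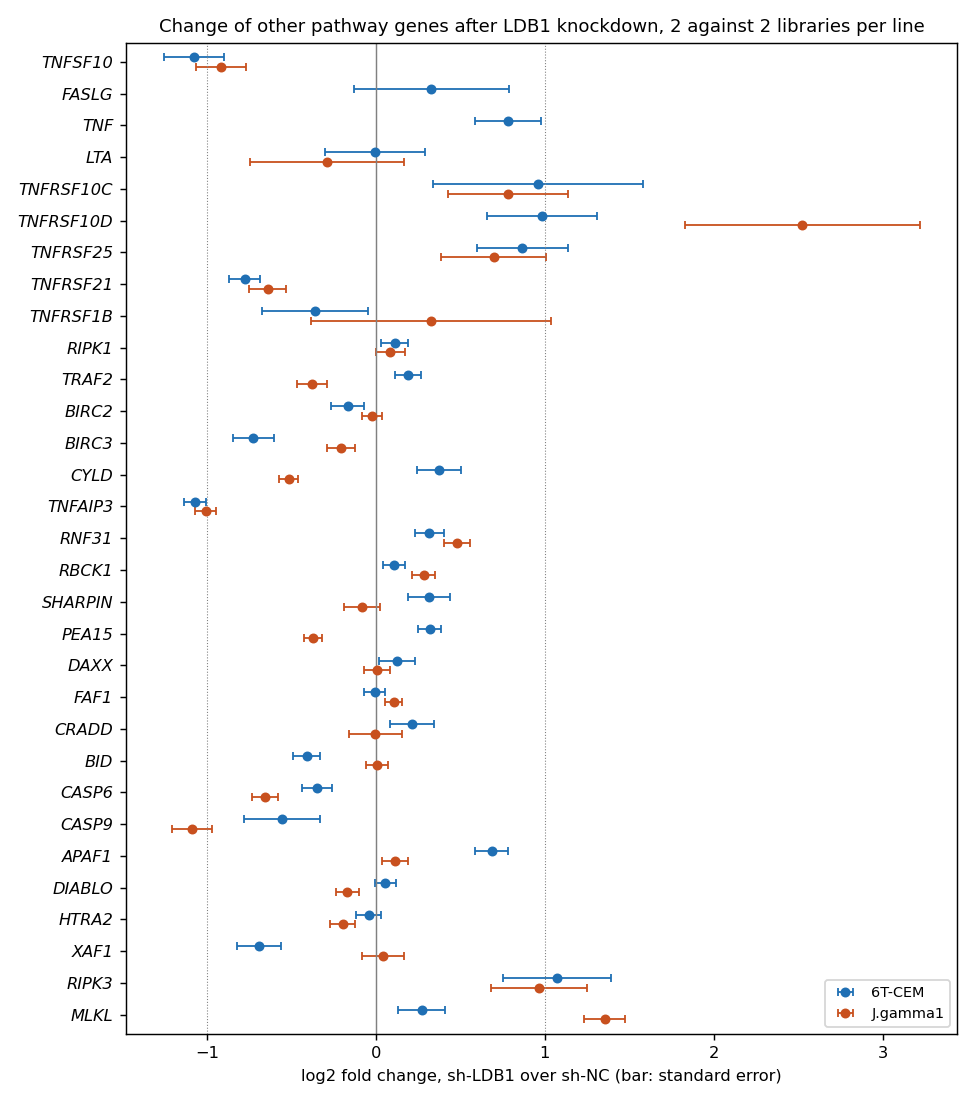
Log2 fold change of 31 of the other pathway genes, sh-LDB1 over sh-NC, with its standard error, in 6T-CEM (blue) and J.gamma1 (orange), with dotted lines at a log2 fold change of 1 in either direction; genes below the filter in a line have no point there. TNFSF10 and TNFAIP3 lie below 0 in both lines, at -1.08 and -0.92 and at -1.07 and -1.01, while MLKL stands at 0.27 and 1.35.

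The change differed between the lines for 10 of the 33 wider pathway genes in the fit of all 8 libraries, 4 with the higher value in J.gamma1 and 6 with the lower (adjusted p under 0.05, edgeR interaction). Over all 18552 genes, 12% had the higher and 12.4% the lower value in J.gamma1. CYLD, a deubiquitinase that acts on the TNF receptor complex, had the largest negative difference of the 10 (-0.89, SE 0.11, adjusted p = 0.000146, edgeR), rising in 6T-CEM from 341 and 357 counts to 531 and 455 and falling in J.gamma1 from 2886 and 2929 to 1830 and 1844. Among the 10 that passed, MLKL had the largest positive difference (1.08, SE 0.18, adjusted p = 0.00122, edgeR). The rise of CYLD in 6T-CEM was lost under 6 of the alternatives, the fit with DESeq2 among them (adjusted p = 0.109).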

How the data were processed

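The 8 RNA sequencing libraries (4 groups of 2) came from 6T-CEM and J.gamma1 with sh-NC or sh-LDB1. The authors used HISAT2 2.2.0 to align 150 bp reads to hg38 and StringTie for quantification, per the submitters' processing notes and the study's methods, and deposited 1 table of whole-number counts per gene for each line, without normalization. The annotation release, the use of strand and the treatment of reads that match several genes are not given in the sources used here. Of the identifiers, 56105 were matched to a symbol and 8147 were not. The genes, the lists and the tests were chosen with earlier results of these data known.

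Each line was fitted by itself in edgeR 4.0.16 (R 4.3.3) with TMM factors, filterByExpr, robust quasi-likelihood tests and p-values adjusted by Benjamini-Hochberg across the genes tested, and the difference between lines as an interaction over all 8 libraries. Calls were made at an adjusted p under 0.05, alone or with a log2 fold change beyond 1. Standard errors were derived from the F statistic, and CPM were scaled with TMM factors over the 8 libraries. The biological coefficient of variation came to 9.68% (6T-CEM) and 9.16% (J.gamma1). Exon lengths, positions and overlaps came from GENCODE on GRCh38, and promoter windows from RefSeq (GRCh38.p14). The steps were tested on simulated counts. Alternatives included RLE and upper-quartile factors, other filters, DESeq2 1.42.0, a replicate block, a fit of all 8 libraries and leaving out each library. Figures were drawn with matplotlib 3.10.9 in Python 3.11.15. Named genes were the 10 genes, LDB1 and the wider pathway genes past both thresholds in either line or with a difference between lines. The ligands, the decoy receptors, BID, RIPK1, BIRC3 and some of the genes that share exon bases with one of the 10 were also named. ENSG00000254721, on the opposite strand, shares 1011 of the 1708 exon bases of FADD and had group means of at most 10 counts. TNFRSF10A, CASP8 and CFLAR share exon bases with further annotated genes that are not named. FLACC1 was named as a gene on the opposite strand within the span of CASP8. Apart from the cell type markers, the others that are named (TNFRSF21, TNFRSF25, TRAK2, HTRA2, DIABLO) were picked after their values were seen. Some genes that the counts include are not reported here by name.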

Additional observations from a re-analysis of the deposited data

Results flagged for a closer look

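The change after knockdown differed between the lines for 10 wider pathway genes, of which 9 are given here, by a test of the difference itself (J.gamma1 change minus 6T-CEM change on the log2 scale, edgeR interaction, adjusted p under 0.05 over all genes). CYLD (-0.89), PEA15 (-0.69), TRAF2 (-0.57), APAF1 (-0.57) and CASP6 (-0.31) had the lower value in J.gamma1. MLKL (1.08), XAF1 (0.73), BIRC3 (0.51) and BID (0.41) had the higher one. PEA15, which binds FADD, rose in 6T-CEM (log2 fold change 0.32, SE 0.069, adjusted p = 0.00279) and fell in J.gamma1 (-0.37, adjusted p = 0.000152). APAF1, the scaffold of the apoptosome, rose in 6T-CEM (0.68, adjusted p = 7.88e-05) and did not pass in J.gamma1 (0.11, adjusted p = 0.245). TRAF2, an adaptor of the TNF receptor complex, fell in J.gamma1 (-0.38, adjusted p = 0.00437) and did not pass in 6T-CEM (0.19, adjusted p = 0.0713). XAF1, which binds XIAP, fell in 6T-CEM (-0.69, adjusted p = 0.000965) and did not pass in J.gamma1 (0.04, adjusted p = 0.799). CASP6 lay close to the threshold (adjusted p of the difference 0.0498).

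For TNFRSF10A (difference 3.34) and FAS (difference 0.64), every knockdown library lay on the opposite side of the controls in the other line. As these genes were chosen with their changes known, the difference was not tested.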

How the results depend on the processing

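The sign of the log2 fold change of each of the 10 genes was kept in each line under the alternatives run, except CASP10 in 6T-CEM, which ran from -0.07 to 0.03. Their median in 6T-CEM, 0.21, was 0.24 with upper-quartile factors and 0.15 with a filter of a mean of 50 counts, and 0.19 to 0.23 when 1 library was left out. In J.gamma1 it was 0.56 to 0.65 when 1 library was left out, against 0.62. Of the wider pathway genes, 17 passed the adjusted p in 6T-CEM, 10 without the sh-NC replicate 1 and 10 to 16 over the fits without 1 library. In J.gamma1 16 passed, and 13 to 16 did so in those fits. With both thresholds 3 passed in 6T-CEM, 10 with a threshold of 1.5-fold, and 1 to 3 without 1 library, the 1 being without the sh-LDB1 replicate 1. In J.gamma1 4 passed, 2 with the filter of a mean of 50 counts, 9 at 1.5-fold and 2 to 5 without 1 library, the 2 being without the sh-NC replicate 2. With DESeq2, 13 and 14 passed the adjusted p.

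With the replicate block, 16 genes passed in 6T-CEM and 17 in J.gamma1, CYLD losing its 6T-CEM call and HTRA2 its J.gamma1 call while BIRC3 and DIABLO gained calls in J.gamma1. Libraries with the same number did not deviate together (r = -0.0252 and -0.0155 across genes), so the numbers were not treated as pairs. Leaving out 1 library leaves a group with a lone sample, which was assumed to vary like the other groups. Depth limited TNFRSF10B in 6T-CEM and TNFRSF10A in the J.gamma1 controls, with 14 to 62 and 20 to 42 counts.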
